A study of Homo sapiens with 4 samples.

Results

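The inflammasome and pyroptosis genes described here were 10 human genes: the DNA sensors AIM2 and IFI16, the adaptor gene PYCARD, the caspase genes CASP1, CASP4 and CASP5, the caspase regulator CARD16, the gasdermin genes GSDMD and GSDME, and the cytokine gene IL18. Their open chromatin was read from ATAC-seq, in which a transposase cuts accessible DNA, in HK1, an established nasopharyngeal carcinoma cell line of epithelial origin. A peak counted as a member when it overlapped the gene body (GENCODE annotation of GRCh38) or the 10 kb upstream of it. This gave 90 of the 250225 peaks in the 4 deposited lists. Overlapping peaks of different lists were merged into regions, and 35 of the 93211 merged regions were at the 10 genes.

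All 4 groups were HK1 cells. WT denotes FLI1-intact cells labelled as control, WT-IFN-γ the same genotype given IFN-γ, sgFLI1 the FLI1 knockout (FLI1-KO) labelled as control, and sgFLI1-IFN-γ the knockout given IFN-γ. FLI1 encodes an ETS-family transcription factor. Whether the knockout was a clone or a pool of edited cells is not stated in the sources used here. Each group had 1 library, so no spread between replicates could be measured, no p-value is given, and every interval below is a 95% interval for counting error alone. A difference between 2 libraries is a difference between those libraries.

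An inflammasome is a cytosolic complex in which a sensor recruits the adaptor ASC, the product of PYCARD, and thereby activates caspase-1. Caspase-1 matures interleukin-18 and interleukin-1β and cleaves gasdermin D, whose freed end forms pores in the plasma membrane, a lytic death called pyroptosis. Caspase-4 and caspase-5 bind bacterial lipopolysaccharide directly and also cleave gasdermin D, whereas gasdermin E is cleaved by the apoptotic caspase-3. Epithelial cells store interleukin-18 as a precursor, and several of these genes are known interferon targets in other cells.

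The lists of WT cells comprised 59629 peaks without and 67470 with IFN-γ, and those of FLI1-KO cells 63203 and 59923. Depth was compared through the tag density, which was recovered from the lists and lay between 6.86 and 8.84 tags per kb, so the deepest library, WT-IFN-γ, had 1.29 times the depth of the shallowest, sgFLI1-IFN-γ. Of 7 epithelial marker genes 3 (EPCAM, KRT8 and KRT18) had a promoter peak in every library, and CDH1, KRT5, KRT14 and TP63 had none. Of 7 leukocyte markers, CD14 alone had a promoter peak, with 14 to 32 tags, and PTPRC had none. At FLI1 itself 4 or 5 peaks were listed per library. A peak within 1 kb of the canonical FLI1 transcription start site (TSS) was present in both WT libraries and in neither FLI1-KO library, which does not by itself show that the protein was lost.

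Sequences are shown first for 4 regions that were listed after IFN-γ in WT but not in untreated WT, and for the IFI16 promoter, which had the largest IFN-γ ratio of the member regions listed in both. All are GRCh38 on the strand of the gene, around the tetramer pair or, without one, around the summit. Capitals mark 2 GAAA tetramers separated by 2 bases (or the same on the opposite strand), a spacing bound by interferon regulatory factors (IRF); where no capitals appear, this pair was absent from the window. The windows were chr11:105035098-105035198 for the CASP1 promoter, chr1:159077144-159077244 for the AIM2 promoter, chr1:159113948-159114048 for the region 37.3 kb upstream of AIM2, chr11:105000925-105001025 for CASP5 intron 5, and chr1:159009897-159009997 for the IFI16 promoter.
CASP1 promoter: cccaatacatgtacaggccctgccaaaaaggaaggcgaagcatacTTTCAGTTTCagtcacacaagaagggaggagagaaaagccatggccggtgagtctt
AIM2 promoter: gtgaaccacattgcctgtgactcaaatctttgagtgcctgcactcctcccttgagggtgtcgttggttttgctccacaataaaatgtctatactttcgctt
AIM2 upstream region: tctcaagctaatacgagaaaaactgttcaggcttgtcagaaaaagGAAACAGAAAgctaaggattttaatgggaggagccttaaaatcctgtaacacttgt
CASP5 intron 5: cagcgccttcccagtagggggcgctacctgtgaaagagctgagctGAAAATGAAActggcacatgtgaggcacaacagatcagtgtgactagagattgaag
IFI16 promoter: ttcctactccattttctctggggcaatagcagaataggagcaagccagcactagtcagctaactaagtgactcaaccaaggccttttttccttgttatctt

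The CASP1 window spans the canonical TSS, with the tetramer pair centred 4 bases upstream of it, and the IFI16 window starts 10 bases before the canonical TSS and runs into exon 1. The pair lay within 100 bp of the summit, on either strand, in 3 of the 5 member peaks gained with IFN-γ in WT, those of CASP1, CASP5 and the region 37.3 kb upstream of AIM2 (60%, Wilson interval 23.1 to 88.2%). Among all 16999 peaks gained in WT the share was 13.4%, and among the 50471 shared ones 2.98%. In the FLI1-KO cells 0 of the 4 gained member peaks held it, against 4.16% of all 10776 gained there. The ETS motif CCGGAAGT, searched on both strands as this exact string, lay near 0 of the 90 member peaks and near 1.28% of all WT-IFN-γ peaks. Variants of the string were not searched, and at so low a share 0 of 90 is no sign of depletion. The AP-1 motif TGANTCA, searched on both strands, lay near 2 of the 5 gained member peaks (40%), among them the AIM2 promoter, and near 23.4% of all gained peaks. A match is a description of the letters and no sign of binding.

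With IFN-γ, 4 member regions listed in both WT libraries had at least 2 times the summit tags per density: the IFI16 promoter, the IFI16 alternative start, the region 10.9 kb upstream of GSDMD, and the region 15.2 kb upstream of AIM2. The AIM2 promoter and the CASP1 promoter were listed in WT-IFN-γ and not in untreated WT. In FLI1-KO no member region listed in both libraries reached that ratio. The AIM2 promoter was likewise listed there with IFN-γ and not without it, so it has no ratio, and the CASP1 promoter was listed in neither FLI1-KO library. Here a tag is a sequenced fragment, as MACS piled it up, that covers the summit. Tags were recovered as whole numbers and divided by the tag density of the library before a ratio was taken.

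**Figure D1:**
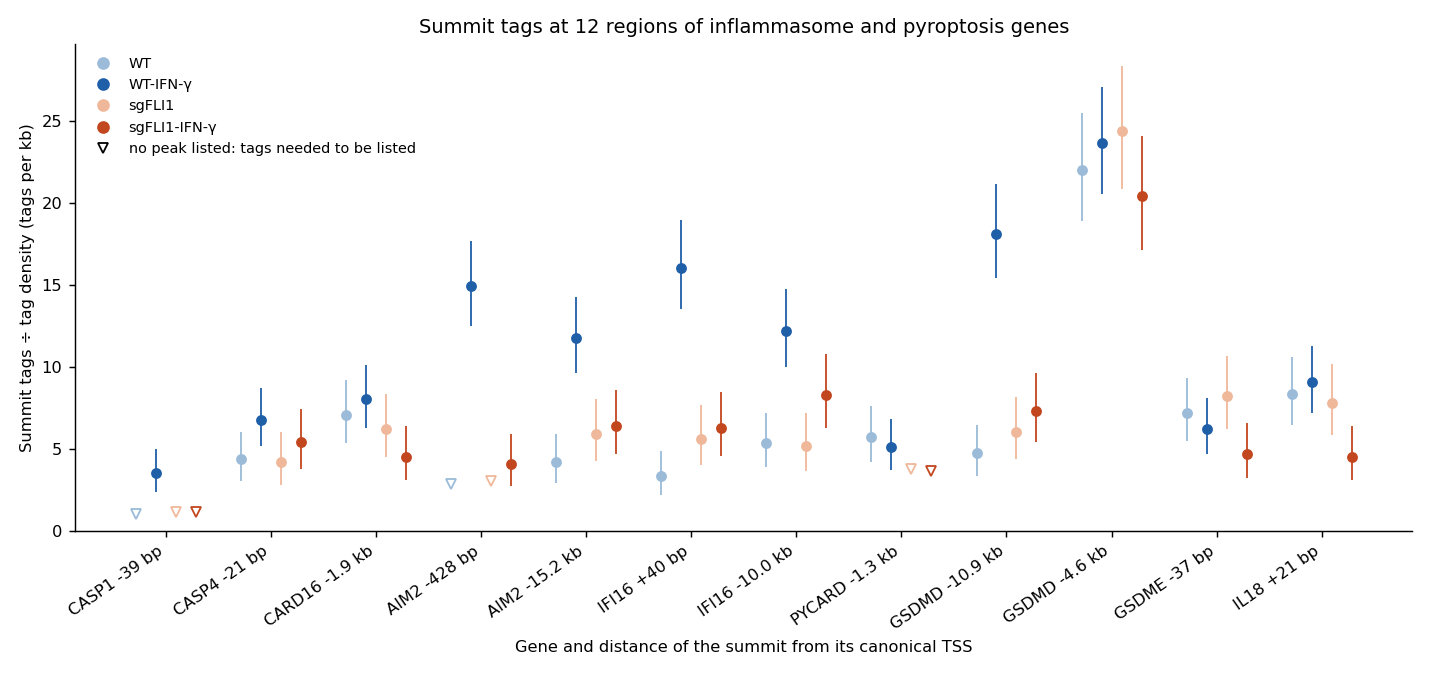
Summit tags divided by tag density (y axis) at 12 member regions (x axis, with the distance of the summit from the canonical TSS) in the 4 libraries. Points are the single library of each group with exact Poisson 95% intervals, and open triangles give the level needed for a peak to be listed where none was. WT-IFN-γ stands above the other 3 libraries at AIM2, at IFI16 and 10.9 kb upstream of GSDMD, while the GSDMD region at -4.6 kb is at a similar level in all.

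AIM2 encodes a sensor of cytosolic double-stranded DNA. Its promoter region (chr1:159076778-159077693, summit 428 bp upstream of the canonical TSS) held 132 tags in WT-IFN-γ (exact Poisson interval 110 to 157) and 28 tags in sgFLI1-IFN-γ (18.6 to 40.5), and no peak was listed in WT or sgFLI1. It was listed in the treated libraries alone, a pattern shared by 1.74% of all merged regions. At the WT-IFN-γ level, 120 tags would have been expected in WT and 104 in sgFLI1, while 23 and 21 would have sufficed for a peak over the local background scaled to those libraries. Per tag density, sgFLI1-IFN-γ was at 0.273 of WT-IFN-γ (0.175 to 0.413). A lower ratio was found at 0.27% of all 47449 regions in both lists. In bulk ATAC-seq, fewer cells with an open region and a less open region in each cell cannot be told apart.

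A second AIM2 region (chr1:159091048-159092686, 15.2 kb upstream of the canonical TSS and within the long annotated gene) held 34 tags in WT, 104 in WT-IFN-γ, and in FLI1-KO 41 without and 44 with IFN-γ. WT-IFN-γ was the highest, and the other 3 intervals overlapped one another. The IFN-γ ratio was 2.78 in WT (1.87 to 4.23) and 1.08 in FLI1-KO (0.692 to 1.7). Without IFN-γ, FLI1-KO to WT was 1.40 (0.866 to 2.27), whereas with IFN-γ it was 0.545 (0.374 to 0.782).

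Other AIM2 regions were weaker. The region 37.3 kb upstream (chr1:159113705-159114268) was listed in WT-IFN-γ alone with 31 tags, where 8 or 9 tags would have sufficed in the other libraries and 24.1 to 28.2 were expected. A peak 45.5 kb upstream was also in WT-IFN-γ alone, with 10 tags and a −log10 q of 2.75, and the other libraries were expected to hold only 7.8 to 9.1 tags there, so its absence from them is not informative. In intron 2, 4.6 kb downstream, there were 25 tags in WT, 32 in WT-IFN-γ, and in FLI1-KO 12 without and 19 with IFN-γ. A region 100.7 kb upstream, inside CADM3, was missing from sgFLI1 alone and held 36 tags in WT, 43 in WT-IFN-γ and 31 in sgFLI1-IFN-γ. The region 84.5 kb upstream held 29 and 45 tags in the WT libraries without and with IFN-γ and 45 and 37 in FLI1-KO. Its untreated FLI1-KO to WT ratio was 1.80 (1.10 to 2.98). This was 1 of 2 among the 18 member regions in both lists with an interval above 1, beside 9.80% of all regions. The other was the IFI16 promoter, whose lower limit of 1.0002 was barely above 1. The regions 55.8 kb and 121 kb upstream were in all 4 libraries with 17 to 34 tags. The region 121 kb upstream had its summit inside CADM3. Only its WT peak reached the 10 kb upstream window and counts as a member peak.

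IFI16 encodes a DNA sensor of the same family, found largely in the nucleus. It lies beside AIM2, and both genes' intervals share neighbours on chromosome 1. Its canonical promoter (chr1:159009477-159010682, summit 40 bp downstream of the TSS in exon 1) held 27 tags in untreated WT (17.8 to 39.3), 142 in WT-IFN-γ (120 to 167), and in FLI1-KO 39 without (27.7 to 53.3) and 43 with IFN-γ (31.1 to 57.9). The WT-IFN-γ interval lay apart from the other 3. The IFN-γ ratio was 4.79 in WT (3.16 to 7.52), higher than at 99.96% of the 49895 regions in both WT lists, and 1.11 in FLI1-KO (0.705 to 1.76). FLI1-KO to WT was 1.68 without IFN-γ (1.00 to 2.85) and 0.390 with it (0.271 to 0.552).

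The alternative IFI16 start (chr1:158998621-159000929, 10.0 kb upstream of the canonical TSS and at the end of the annotated gene) held 43 tags in WT, 108 in WT-IFN-γ, and in FLI1-KO 36 without and 57 with IFN-γ. It was the only member region whose IFN-γ ratio had an interval above 1 in both genotypes, at 2.29 in WT (1.59 to 3.34) and 1.60 in FLI1-KO (1.04 to 2.50), which held at 0.0489% of all regions in the 4 lists. In sgFLI1 this region held 2 peaks, and the stronger had its summit 9125 bp upstream of the canonical TSS, away from the summits of the other libraries at 9966 to 10090 bp, so the FLI1-KO ratio compares different bases. With IFN-γ, FLI1-KO to WT was 0.680 (0.484 to 0.946). The canonical protein-coding TSS nearest to the WT-IFN-γ summit of this region was that of PYDC5, 2866 bp away. A peak in IFI16 intron 2 was listed in sgFLI1 alone, with 16 tags.

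**Figure D2:**
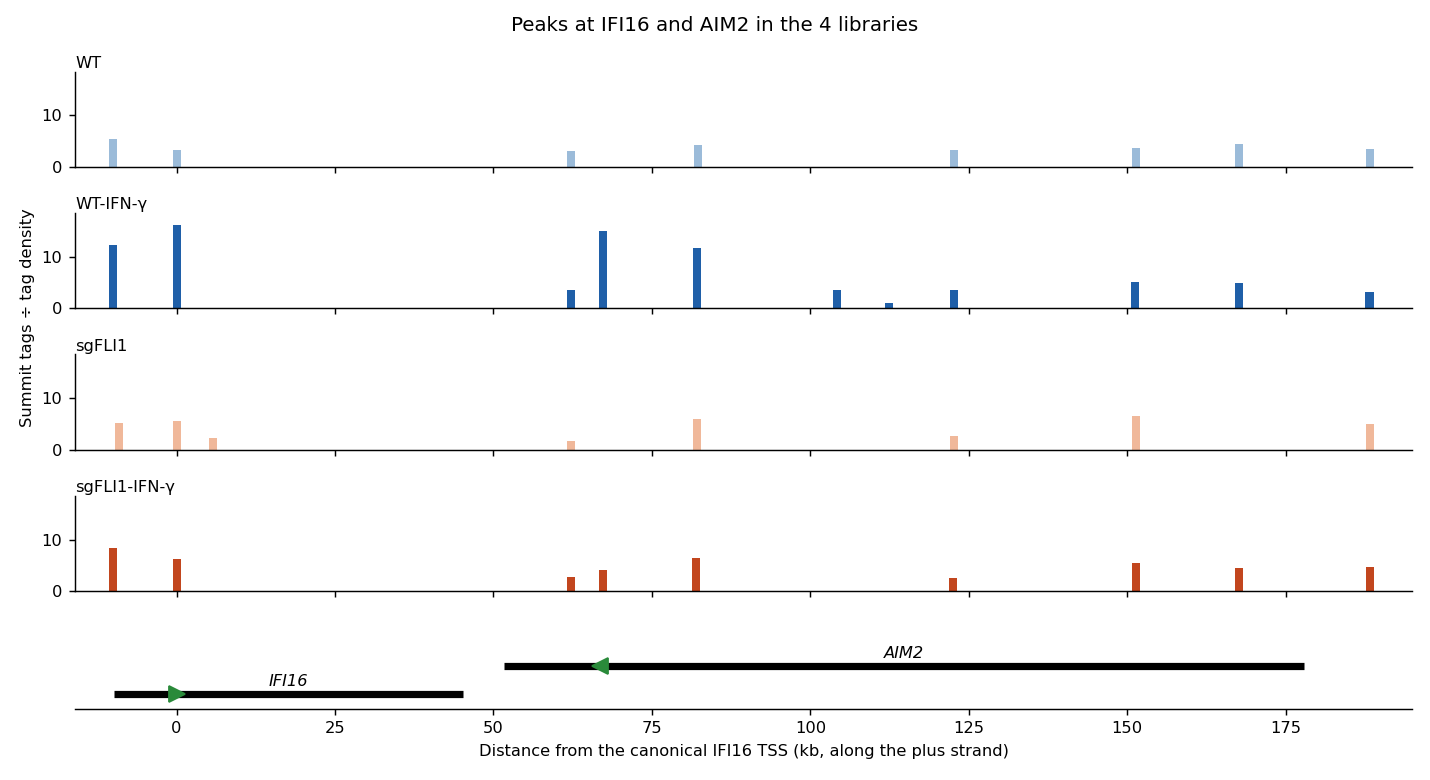
Peaks at IFI16 and AIM2, 1 track per library. The x axis is the distance from the canonical IFI16 TSS in kb, bar height is summit tags divided by tag density (the strongest peak of a library in each region), black lines are gene bodies and green arrowheads the canonical TSSs with their direction. The 4 tallest bars of WT-IFN-γ are at the 2 IFI16 starts, at the AIM2 promoter and 15.2 kb upstream of AIM2.

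PYCARD encodes the adaptor ASC, and its gene gave weak peaks on a high local background. A region 1.3 kb upstream of the canonical TSS (chr16:31203806-31204449) held 46 and 45 tags in the WT libraries without and with IFN-γ, with an IFN-γ ratio of 0.890 (0.577 to 1.37), and was listed in neither FLI1-KO library. In those 2 libraries 26 and 25 tags would have sufficed, against 35.3 and 34.9 expected at the WT-IFN-γ level. A second region 1.5 kb downstream held 38 tags in WT, 42 in WT-IFN-γ, and in FLI1-KO 24 without and 29 with IFN-γ. Its WT peak lay outside the gene and so is not counted as a member peak. The WT peak overlapped neither FLI1-KO peak and was joined to them only through the WT-IFN-γ peak. The merged region therefore counts as in all 4 lists, while its sgFLI1 peak counts as not listed in WT. The summits of this region lay 1691 and 1483 bp downstream of the TSS in the WT libraries and 875 and 881 bp in FLI1-KO. Other chromosome 16 regions within 5 Mb were also lower in FLI1-KO, with a median log2 ratio to WT of -0.25 without and -0.34 with IFN-γ. The part of these neighbours in the PYCARD values was not tested.

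The inflammatory caspase genes lie in 1 cluster on chromosome 11. CASP1, the effector of the inflammasome, had 1 region in any list: its promoter (chr11:105035082-105035451, summit 39 bp upstream of the canonical TSS) was listed in WT-IFN-γ alone, with 31 tags (21.1 to 44) and a −log10 q of 21.4, above 64.1% of the peaks of that list. The other libraries would have listed it at 8 tags, and 28.2, 24.3 and 24.1 were expected in WT, sgFLI1 and sgFLI1-IFN-γ at the WT-IFN-γ level. Being listed in WT-IFN-γ alone was common, at 11.6% of all merged regions. Within 500 bases on each side of the canonical TSS, CASP1 and CARD16 aligned over 996 columns with 90.7% identity. The authors removed reads of low mapping quality, and whether this took tags from either promoter was not tested. CARD16 had no summit within 1 kb of its own canonical TSS in any library.

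CASP4, an intracellular receptor for lipopolysaccharide, had a promoter region in every library (chr11:104967568-104969058), with 35 tags in WT, 60 in WT-IFN-γ, and in FLI1-KO 29 without and 37 with IFN-γ. Tags were highest in WT-IFN-γ, and per tag density its counting interval overlapped those of the other 3 libraries. IFN-γ to untreated was 1.56 in WT (1.01 to 2.44) and 1.29 in FLI1-KO (0.772 to 2.17), and FLI1-KO to WT with IFN-γ was 0.794 (0.513 to 1.22). The summits lay 213 bp downstream of the TSS in WT and 21 bp upstream in WT-IFN-γ. In FLI1-KO they lay 432 bp downstream without and 19 bp downstream with IFN-γ, so the IFN-γ ratios compare different bases. An 11-tag peak in CASP4 exon 7 was listed in sgFLI1-IFN-γ alone. CASP5, its close relative, had no promoter peak in any library. It had an intron 5 peak of 13 tags in WT-IFN-γ alone, which holds the tetramer pair printed above, and an exon 6 peak of 9 tags in sgFLI1-IFN-γ alone. Both peaks are near the 7 to 8 tags at which a peak is listed.

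CARD16 encodes a protein of the caspase recruitment domain alone that binds and restrains caspase-1. Its strongest region (chr11:105046749-105047647, 1.9 kb upstream of the canonical TSS) held 57 tags in WT, 71 in WT-IFN-γ, and in FLI1-KO 43 without and 31 with IFN-γ. IFN-γ to untreated was 1.13 in WT (0.789 to 1.64) and 0.729 in FLI1-KO (0.444 to 1.18), and FLI1-KO to WT was 0.875 without IFN-γ (0.575 to 1.32) and 0.562 with it (0.356 to 0.869). The weaker regions lay 47.7 kb and 55.1 kb upstream, where the annotated gene overlaps the pseudogene CARD17P. The first was in all libraries with 11 to 15 tags, and the second in sgFLI1 alone with 16.

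**Figure D3:**
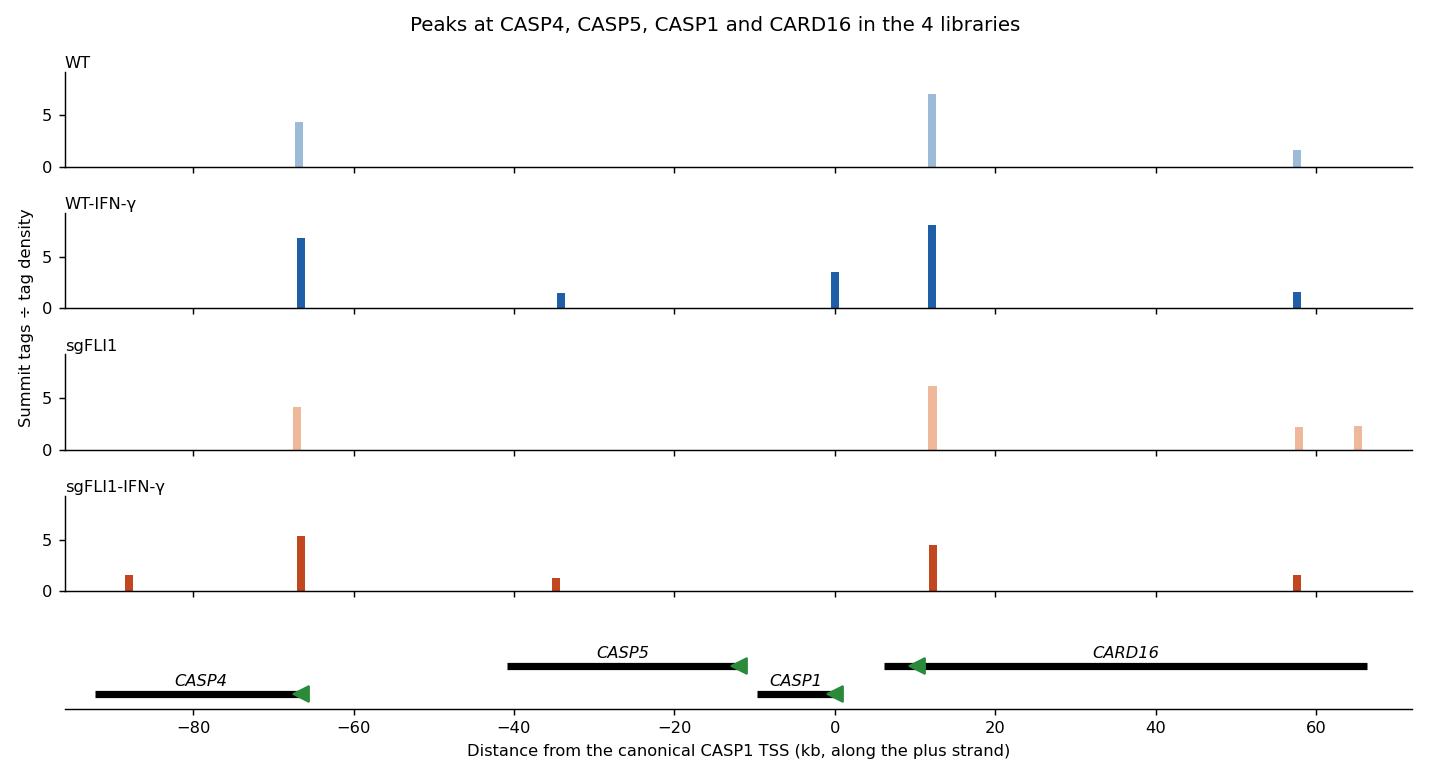
Peaks at CASP4, CASP5, CASP1 and CARD16, 1 track per library. The x axis is the distance from the canonical CASP1 TSS in kb, bar height is summit tags divided by tag density, black lines are gene bodies and green arrowheads the canonical TSSs with their direction. The bar at 0 kb, the CASP1 promoter, is present in WT-IFN-γ and in no other library, whereas the CASP4 promoter and the region beside the CARD16 TSS are present in all 4.

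GSDMD, which encodes the pore-forming gasdermin of pyroptosis, had a contrast between 2 regions about 6 kb apart. The region 10.9 kb upstream of the canonical TSS (chr8:143546927-143547788, 5.8 kb before the annotated gene and 6.0 kb upstream of the nearest protein-coding TSS, that of ZC3H3) held 38 tags in WT, 160 in WT-IFN-γ, and in FLI1-KO 42 without and 50 with IFN-γ. The WT-IFN-γ interval (136 to 187) lay apart from the other 3. The IFN-γ ratio was 3.83 in WT (2.68 to 5.61), above 99.9% of all regions in both lists, and 1.20 in FLI1-KO (0.782 to 1.86). FLI1-KO to WT was 1.28 without IFN-γ (0.807 to 2.04) and 0.403 with it (0.287 to 0.556). Which gene this region acts on cannot be read from these data.

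The second region, at an alternative GSDMD start 4.6 kb upstream of the canonical TSS (chr8:143553170-143554238), was the strongest of all 35 and held 177 tags in WT, 209 in WT-IFN-γ, and in FLI1-KO 169 without and 140 with IFN-γ. Its 4 ratios lay between 0.837 and 1.11, and every interval included 1. For IFN-γ in WT, the ratio was 1.07 (0.875 to 1.32). A peak 3.0 kb upstream was listed in sgFLI1 alone with 50 tags, on a background so high that 41 to 49 tags would have been needed in the other libraries.

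GSDME encodes the gasdermin cleaved by caspase-3, and its promoter (chr7:24756515-24758157) held 58 tags in WT, 55 in WT-IFN-γ, and in FLI1-KO 57 without and 32 with IFN-γ. Per tag density, these levels were 7.21, 6.22, 8.22 and 4.66 in the same order. The IFN-γ ratio was 0.863 in WT (0.586 to 1.27) and 0.567 in FLI1-KO (0.356 to 0.890). FLI1-KO to WT was 1.14 without IFN-γ (0.777 to 1.67) and 0.750 with it (0.469 to 1.18), and both intervals included 1. The 7 intronic regions held 7 to 18 tags where listed, near the limit. Of these, 1 was in all 4 libraries, 1 was missing from WT-IFN-γ alone, 1 was in both FLI1-KO libraries and in neither WT library, 3 were in sgFLI1 alone and 1 was in WT alone. The region in the FLI1-KO libraries lay in intron 9, 55.7 kb downstream of the canonical TSS, with 14 tags without and 11 with IFN-γ. The 16 tags of the intron 5 region in WT stood against 11 needed and 17.6 expected in WT-IFN-γ.

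IL18 encodes the cytokine that caspase-1 matures. Its promoter (chr11:112162897-112164368, summit 21 bp downstream of the TSS in exon 1) held 67 tags in WT, 80 in WT-IFN-γ, and in FLI1-KO 54 without and 31 with IFN-γ. It was lowest in sgFLI1-IFN-γ. In response to IFN-γ the ratio was 1.09 in WT (0.776 to 1.53) and 0.580 in FLI1-KO (0.360 to 0.919), and FLI1-KO to WT was 0.935 without IFN-γ (0.641 to 1.36) and 0.499 with it (0.319 to 0.764). The intron 1 region (chr11:112157070-112158078, 6.6 kb downstream) held 82, 106, 70 and 76 tags, and all 4 of its ratios lay between 0.924 and 1.18 with intervals that included 1. In FLI1-KO its IFN-γ ratio was 1.10 (0.782 to 1.54), and the difference from the promoter was not tested.

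To compare the response of the genotypes directly, the WT ratio was divided by the FLI1-KO ratio at the 17 member regions in all 4 lists, with an interval on the log scale from the 4 counts. The quotient was 4.30 at the IFI16 promoter (2.36 to 7.81), 3.19 at the region 10.9 kb upstream of GSDMD (1.85 to 5.48), 2.57 at the region 15.2 kb upstream of AIM2 (1.44 to 4.56) and 1.87 at the IL18 promoter (1.08 to 3.24). Of the 17 intervals, these 4 lay above 1. Across all 40876 regions in the 4 lists, 4.76% had an interval above 1. At IFI16, GSDMD and AIM2 the WT ratio was the high one, and at IL18 the FLI1-KO ratio was the low one. The first 3 quotients were above those of 99.93%, 99.7% and 99.0% of all such regions, and that of the IL18 promoter above 95.4%. At the alternative IFI16 start the quotient was 1.43 (0.827 to 2.47), and at the CASP4 promoter 1.21 (0.638 to 2.3), so no difference between genotypes was detectable there at this depth.

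**Figure D4:**
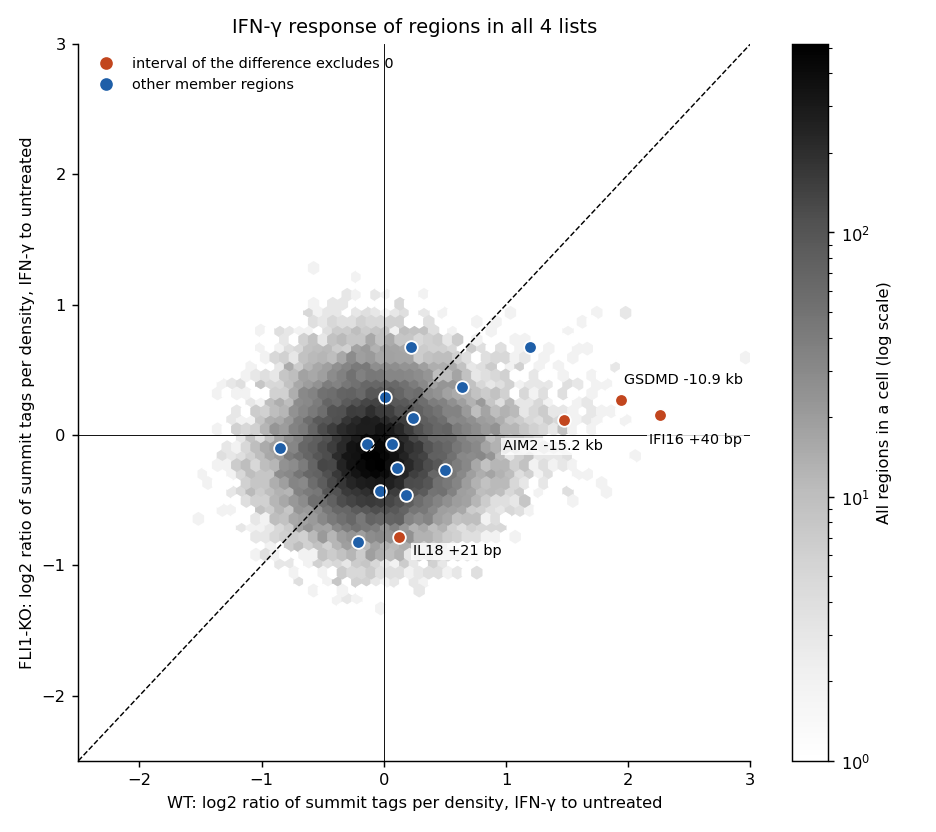
The log2 ratio of summit tags per density, IFN-γ to untreated, in WT (x axis) and in FLI1-KO (y axis) for regions in all 4 lists. Grey cells count all 40876 regions on a log scale, coloured points are the 17 member regions, and the dashed line marks equal ratios. The IFI16 promoter and the regions 10.9 kb upstream of GSDMD and 15.2 kb upstream of AIM2 lie far right with y near 0. The IL18 promoter lies below the line at an x value near 0.

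Over the member regions in both lists of a comparison, the median log2 IFN-γ ratio in WT was 0.12 over 19 regions, of which 14 were above 0, beside -0.07 over all 49895 regions, of which 40.6% were above 0. At least a 2-fold higher level was found at 4 of the 19 member regions and at 1.80% of all regions. In FLI1-KO the median was -0.07 over 19 member regions, beside -0.14 over all, and at least a 2-fold higher level was found at 0 of the 19 and at 0.212% of all regions. Between genotypes the median log2 ratio of FLI1-KO to WT was 0.07 without IFN-γ (18 regions, beside 0.05 over all) and -0.39 with IFN-γ (19 regions, beside -0.02 over all). With IFN-γ, 4 of the 19 were at least 2-fold lower in FLI1-KO (the AIM2, IFI16 and IL18 promoters and the region 10.9 kb upstream of GSDMD), beside 3.31% of all regions, and 7 of the 19 had an interval below 1, beside 8.48% of all regions. The 4 comparisons share libraries, so WT-IFN-γ enters both the IFN-γ ratio in WT and the ratio between treated genotypes. Regions of AIM2 and IFI16, which make up 7 of the 17 in all lists, are neighbours and not independent.

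**Figure D5:**
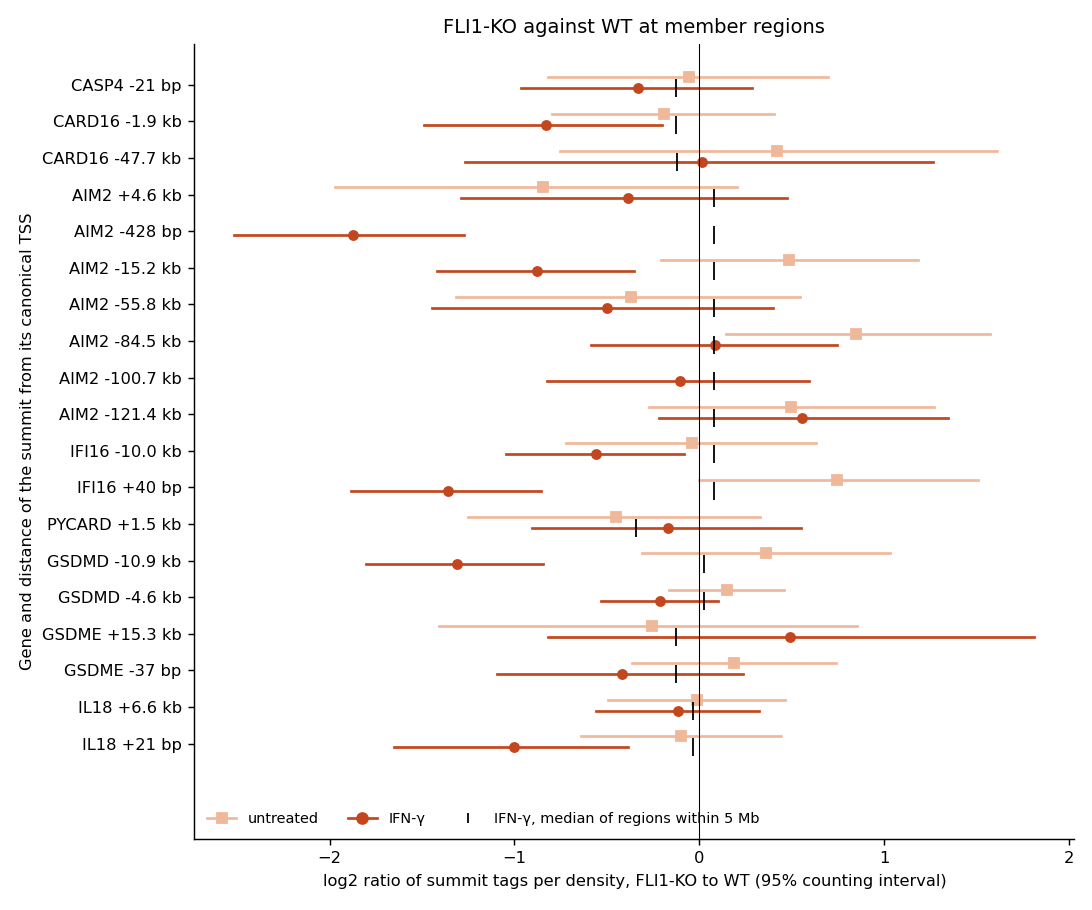
The log2 ratio of summit tags per density, FLI1-KO to WT (x axis), at the 19 member regions in both IFN-γ lists (y axis). Squares are untreated and circles IFN-γ-treated libraries, lines are 95% counting intervals, and black ticks are the median of the regions within 5 Mb in the treated comparison. The treated interval lies below 0 at 7 of the 19 regions (8.48% of all regions), and the untreated one at 0 of 18 (5.43% of all).

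Listing a peak or not gave a different picture from the tags. The 10 genes had 20 peaks without and 23 with IFN-γ in WT, and 25 and 22 in FLI1-KO. In WT, 5 of the 23 treated peaks were gained (21.7%, against 25.2% of all peaks in that list) and 2 of the 20 untreated ones were lost (10%, against 15.9%). In FLI1-KO, 4 of 22 were gained (18.2%, against 18.0%) and 7 of 25 were lost (28%, against 22.2%). Of the WT-IFN-γ member peaks 5 of 23 were not listed in sgFLI1-IFN-γ (against 29.0% of all), and in the reverse direction 4 of 22 (against 19.8%). Without IFN-γ, 3 of 20 WT peaks were not in sgFLI1 (against 21.4%) and 8 of 25 sgFLI1 peaks were not in WT (against 25.3%). The Wilson interval of each of these 8 member shares included the share of all peaks.

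By gene, CASP1, CASP5 and AIM2 had a gained peak in WT (3 of 10, where 32.0% of all protein-coding genes had one) and CASP4, CASP5 and AIM2 in FLI1-KO (3 of 10, against 22.9%). GSDME alone had a lost peak in WT (1 of 10, against 21.5%), while CARD16, IFI16, GSDMD and GSDME had one in FLI1-KO (4 of 10, against 28.0%). AIM2 was gained in both through its promoter. It was also gained in WT 37.3 kb and 45.5 kb upstream, and in FLI1-KO 100.7 kb upstream, inside CADM3. CASP5 was gained through different peaks in the genotypes. Of the 35 regions, 17 were in all 4 lists and 13 in 1 list, and of all merged regions 43.9% and 32.4% were. A summit within 1 kb of the canonical TSS was found in all libraries for CASP4, IFI16, GSDME and IL18, in some for CASP1, AIM2 and PYCARD, and in none for CASP5, CARD16 and GSDMD.

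Among 38 other inflammasome, interleukin-1 family and gasdermin genes, 9 had a peak gained in WT (23.7%, against 32.0% of all protein-coding genes) and 12 in FLI1-KO (31.6%, against 22.9%). The 5 with the most significant WT gains were IL18BP, STING1, DPP9, NEK7 and CASP8. IL18BP, which encodes the secreted inhibitor of interleukin-18, had 61 tags 661 bp downstream of its canonical TSS in WT-IFN-γ, none listed in FLI1-KO without IFN-γ and 15 with it. STING1, the adaptor of cytosolic DNA sensing, had 45 tags in WT-IFN-γ 10.1 kb upstream, and 13 without and 22 with IFN-γ in FLI1-KO. DPP9, whose protease restrains the NLRP1 and CARD8 inflammasomes, had 39 tags in WT-IFN-γ, and 19 and 14 in FLI1-KO. The NEK7 peak (22 tags) and the CASP8 peak (39 tags), genes of an NLRP3 partner and of a caspase that links apoptosis with inflammasomes, were in neither FLI1-KO library. Of all merged regions, 11.6% were listed in WT-IFN-γ alone. NEK7 and CASP8 each also had a different peak lost in WT. CASP8 had a different peak gained in FLI1-KO, and IL18BP a different peak lost there. These 5 genes were picked by their gain in WT, which favours lower or absent peaks elsewhere, and no gene was picked by a gain in FLI1-KO. For scale, 6 of 7 guanylate-binding protein genes, an interferon-induced family that acts on bacteria ahead of caspase-4, had a peak gained in WT. In FLI1-KO, 2 of these 7 had a gained peak. Of 7 apoptotic caspase genes, 3 had a peak gained in WT and 5 in FLI1-KO.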

How the data were processed

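ATAC-seq peak lists of 4 HK1 groups were used, 1 library each. As the methods describe, the authors used Trimmomatic, Bowtie2 (GRCh38) and MACS2 2.1.2 with a limit on the q-value, after discarding duplicates and poorly mapping reads; pooling, the stage of the reproducibility filter, and any transposase shift are not given for the lists, and groups came from GEO's labels. The authors deposited for each peak a score, a fold enrichment (a ratio) over the local background, and −log10 p and −log10 q values.

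Whole summit tags were solved from each deposited fold and its −log10 p (100% of peaks; 99.998% in sgFLI1-IFN-γ), because MACS writes the fold as pileup plus 1 over background plus 1 and takes p from a Poisson distribution. Recovery was tested on simulated data. Tag density is the lowest background divided by the tag extension and compares libraries. The extension was inferred as the width of the shortest peak in each list (249 to 274 bp). Total reads are not given in the sources used here. Peaks were shared at 1 bp of overlap. Tags have exact Poisson intervals, ratios exact conditional binomial intervals and shares Wilson intervals, without molecular identifiers, so all cover counting error only. The tags needed for a peak are those whose Poisson p reaches the weakest listed p of a library over the strongest peak's background scaled by tag density.

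Members, lists and the rule for named regions were chosen with earlier results of these data known. The rule named all 10 genes, with the promoter and most significant region in every library, weaker regions where listed in 1 to 3 libraries, and up to 5 genes of the other list. The IFI16 promoter sequence was chosen after its values were seen. GENCODE 44, Python 3.11.15, SciPy 1.17.1 and pysam 0.24.0 were used. Alternatives were a −log10 q of at least 5, narrower gene windows, other overlap rules, other scalings and other motif windows. One of the motifs searched is not reported here.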

Additional observations from a re-analysis of the deposited data

Results flagged for a closer look

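With IFN-γ the number of member peaks changed by 3 in WT (20 to 23) and by -3 in FLI1-KO (25 to 22), opposite directions that were not tested. At 5 of the 17 member regions in all 4 lists, and at 45.2% of all 40876 such regions, the log2 ratio of summit tags, IFN-γ to untreated, also had opposite signs in the genotypes. It was 0.18 in WT and -0.46 in FLI1-KO at the region 1.9 kb upstream of CARD16, 0.06 and -0.07 at the region 55.8 kb upstream of AIM2, and 0.50 and -0.27 at the region 84.5 kb upstream of AIM2. It was 0.10 and -0.26 at the alternative GSDMD start and 0.12 and -0.79 at the IL18 promoter. With 1 library a group these differences have no replicate check, and the counting interval of the difference between genotypes excluded 0 at the IL18 promoter alone of these 5.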

How the results depend on the processing

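Of 20 results, each under several settings, 82 values stayed within 1.5 times the reported count or within counting error, and 14 moved. A −log10 q of at least 5 in every list left 1 gene with a gained region in FLI1-KO (3 reported), 2 sgFLI1-IFN-γ regions not listed in WT-IFN-γ (4) and 5 sgFLI1 regions not listed in WT (8). Requiring that limit and any peak, however weak, as a match gave 3 regions gained in WT (5), 1 lost in WT (2), 2 gained in FLI1-KO (4) in 1 gene (3), 3 lost in FLI1-KO (7), 3 WT-IFN-γ regions not listed in sgFLI1-IFN-γ (5), 1 in the reverse direction (4) and 3 sgFLI1 regions not listed in WT (8); weak peaks make up the rest by construction. Scaling by the lowest background moved the median log2 IFN-γ ratio in WT from 0.12 to 0.26, and subtracting the median within 5 Mb moved that in FLI1-KO from -0.067 to 0.0885. Within counting error, the sign of the latter also changed when scaled by regions in all 4 lists (0.0619), as did that of the untreated FLI1-KO to WT median (0.067 reported, -0.0163 so scaled, -0.0278 with 3 kb upstream). The FLI1-KO to WT median with IFN-γ lay between -0.46 and -0.29 under the 5 settings. The tetramer share in gained regions was 60% within 50 bp of the summit and 80% anywhere in the peak. No paired analysis was possible because each group has 1 library. The smallest ratio above 1 whose interval excluded 1 was 1.56, from 60 against 35 tags, and differences between cultures were not measured.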
